A study of Rattus norvegicus with 6 samples.

Results

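The genes described here build and serve the machinery that reads mitochondrial DNA in vascular smooth muscle cells (VSMCs). They are nuclear genes named for proteins of the mitochondrial ribosome, together with 17 named factors. The ribosome genes were taken as every row of the expression table whose symbol begins with Mrpl (large subunit) or Mrps (small subunit) followed by a number. A symbol alone does not show that the product is part of the ribosome. The factors serve mitochondrial transcription, RNA turnover, DNA replication and their nuclear control. The rule found 87 of the 13526 genes in the table, of which 42 were Mrpl genes, 28 were Mrps genes and 17 were factors. The rule itself uses symbols and no measured value. Of the 87 members, 86 carried a Gene Ontology (GO) annotation in the table, 74 the term mitochondrion, and 36 the KEGG pathway Ribosome.

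RNA was sequenced from primary VSMCs of the thoracic aorta of wild-type male rats and grown in DMEM with fetal bovine serum. All cells were kept in osteogenic media (OM), which contained 10 mM β-glycerophosphate (β-GP) and 3.5 mM CaCl2 and which drives these cells towards a bone-like, calcifying state. The group called OM plus EMPA (n = 3) also received 1 μM empagliflozin, a diabetes drug that blocks the kidney glucose carrier SGLT2, and the OM group (n = 3) did not. The samples' own names read Pi+E and Pi, and in the study Pi means inorganic phosphate, a calcifying stimulus separate from OM. The groups are called OM here because the samples are recorded with the β-GP and CaCl2 of OM, as the study describes them. The labels give 5 days of treatment, and the study's own description of the sequenced cells gives a shorter time. Nothing in the labels or methods ties the samples to separate animals or cultures, so each p-value rests on a spread between libraries that may be only technical. Cells in complete media without osteogenic stimulus were not analysed here.

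Mitochondria keep a small circular genome that encodes only some subunits of the respiratory chain, together with the ribosomal RNAs (rRNAs) and transfer RNAs needed to translate them. Everything else comes from the nucleus, including all proteins of the mitochondrial ribosome. POLRMT transcribes the genome, with TFAM bending the promoter DNA and TFB2M opening it. The long transcripts are then cut apart, kept stable by the LRPPRC and SLIRP proteins, or degraded by the enzymes encoded by Pnpt1 and Supv3l1. The transcription factors NRF1 and GABP (whose DNA-binding subunit is encoded by Gabpa) and YY1 are known for binding the promoters of such nuclear genes.

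The promoters of 70 of the 87 members (34 Mrpl genes, 21 Mrps genes and 15 factors) were found in the RefSeq table of promoters for the assembly GRCr8, as windows of 300 bases around the annotated start. Each window was searched on both strands for GCGCA and GCGC with 1 base of any kind between them (the NRF1 letters), CCGGAAG (the letters bound by ETS factors such as GABP) and AAGATGGC (the YY1 letters). 6 windows are printed, 5′ to 3′ on the strand of the gene, with the letters found in capitals. They were chosen because they belong to the central packaging and transcription factor (Tfam), the member with the highest level (Mrpl17), a pair of members that were lower with empagliflozin (Mrps31 and Mrpl49), the gene that shares its start region with a further lower member (Twnk), and the factor that binds the ETS letters (Gabpa). The windows lie at chr20:17355123-17355422 (+ strand) for Tfam, chr1:169575650-169575949 (− strand) for Mrpl17, chr16:76324016-76324315 (− strand) for Mrps31, chr1:212779278-212779577 (− strand) for Mrpl49, chr1:253817314-253817613 (+ strand) for Twnk and chr11:37375014-37375313 (+ strand) for Gabpa.
Tfam: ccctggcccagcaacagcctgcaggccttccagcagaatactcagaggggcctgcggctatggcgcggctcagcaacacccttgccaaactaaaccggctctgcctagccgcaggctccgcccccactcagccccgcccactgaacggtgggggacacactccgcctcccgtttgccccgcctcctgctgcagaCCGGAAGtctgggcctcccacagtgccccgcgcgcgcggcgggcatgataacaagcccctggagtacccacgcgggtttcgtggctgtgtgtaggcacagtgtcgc
Mrpl17: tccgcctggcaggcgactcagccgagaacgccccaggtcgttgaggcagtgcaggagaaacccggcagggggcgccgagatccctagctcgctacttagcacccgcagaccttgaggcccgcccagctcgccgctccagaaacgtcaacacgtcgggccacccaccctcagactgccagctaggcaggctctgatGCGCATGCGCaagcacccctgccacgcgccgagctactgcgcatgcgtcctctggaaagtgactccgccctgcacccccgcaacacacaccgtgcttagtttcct
Mrps31: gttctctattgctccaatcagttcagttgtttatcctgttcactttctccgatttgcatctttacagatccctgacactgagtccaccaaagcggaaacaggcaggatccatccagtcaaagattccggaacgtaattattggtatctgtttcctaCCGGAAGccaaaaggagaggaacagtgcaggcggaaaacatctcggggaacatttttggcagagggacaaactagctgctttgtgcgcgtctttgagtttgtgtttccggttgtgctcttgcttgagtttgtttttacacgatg
Mrpl49: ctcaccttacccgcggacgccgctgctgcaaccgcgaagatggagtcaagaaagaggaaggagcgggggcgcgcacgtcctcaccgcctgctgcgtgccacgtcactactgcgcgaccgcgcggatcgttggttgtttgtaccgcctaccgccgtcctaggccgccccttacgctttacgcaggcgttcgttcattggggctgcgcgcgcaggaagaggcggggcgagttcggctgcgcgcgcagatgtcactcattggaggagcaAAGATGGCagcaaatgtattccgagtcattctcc
Twnk: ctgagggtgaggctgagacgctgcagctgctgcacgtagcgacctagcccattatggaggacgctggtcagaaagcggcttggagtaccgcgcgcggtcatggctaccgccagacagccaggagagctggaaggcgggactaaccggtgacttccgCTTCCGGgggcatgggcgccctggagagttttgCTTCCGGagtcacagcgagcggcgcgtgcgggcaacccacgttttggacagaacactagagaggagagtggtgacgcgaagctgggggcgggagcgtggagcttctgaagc
Gabpa: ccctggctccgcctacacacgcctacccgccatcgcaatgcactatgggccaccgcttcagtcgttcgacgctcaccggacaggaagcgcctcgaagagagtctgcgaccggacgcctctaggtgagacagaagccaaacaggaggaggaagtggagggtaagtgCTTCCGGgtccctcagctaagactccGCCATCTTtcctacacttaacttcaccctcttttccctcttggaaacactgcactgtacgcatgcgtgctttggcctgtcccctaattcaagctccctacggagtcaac

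In the printed windows, the ETS letters began 56 bases before the start of Tfam, 94 bases before that of Mrps31, 94 and 61 bases before that of Twnk and 85 bases before that of Gabpa. The Mrpl17 window held the NRF1 letters 55 bases before the start. The YY1 letters began 16 bases after the start of Mrpl49 and 59 bases before that of Gabpa. Among all members searched, 27 of 70 (38.6%) held the ETS letters, against 9.22% of all 27457 windows and 19.2% of the 8805 windows of genes tested here. The YY1 letters were in 16 windows (22.9%), against 3.44% of all windows and 6.02% of those of tested genes. The NRF1 letters were in 9 windows (12.9%), against 4.71% and 11%. In all, 39 of the 70 windows held at least 1 of the 3 motifs. Every printed window did, so the printed ones are not typical of the 70. The windows of Pnpt1, another member that was lower, and of Nrf1 held none of the 3 and are not printed.

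More general promoter letters were spread differently. The GC box, GGGCGG, was in 34 member windows (48.6%), against 34.9% of all windows and 64.8% of the windows of tested genes. CCAAT was in 28 (40%), against 37.7% and 38.5%, and TATAAA in 9 (12.9%), against 14.3% and 6.26%. GAAA, any 2 bases and GAAA again, the core of the interferon-stimulated response element, was in 3 (4.29%), against 3.77% and 2.96%. These are matches of letters and not shown binding sites. The annotated start may not be the start used in these cells, and the windows carry GRCr8 coordinates, which cannot be set beside those of the expression table, for which no source names a build.

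Levels are given in TPM (transcript abundance scaled to a common library total) and to gene length, so genes can be compared within it. TPM keep no record of read depth, so the depth of the libraries is unknown. The mitochondrial ribosome genes lay close together. Of the 70 Mrpl and Mrps genes, 47 had a mean over the 6 libraries of 20 to 60 TPM, 11 lay above and 12 below. Mrpl17, which encodes a large-subunit protein, was the highest of all members at 234 TPM, followed by Mrps21 at 162 TPM and Mrpl54 at 135 TPM. At the low end were Mrpl57 at 8.54 TPM and Mrpl40 at 11.2 TPM among the large-subunit genes and Mrps10 at 13.6 TPM among the small-subunit genes. The span from Mrpl17 to Mrpl57 was 27.4-fold. The median was 37.2 TPM for Mrpl genes, 33.5 TPM for Mrps genes and 14.8 TPM for the 17 factors, against 18.5 TPM for all genes tested.

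When all 87 members were ranked by level, 82 of the 86 neighbouring pairs had overlapping ranges over the 6 libraries. The 4 steps without overlap came directly below Mrpl17, Mrpl54, Mrpl57 and Polrmt. Among the factors, Slirp, which encodes an RNA-binding partner of LRPPRC, was highest at 70.4 TPM. Tfam at 34.5 TPM, Lrpprc at 33.4 TPM and Pnpt1 at 32.4 TPM followed. Polrmt, the RNA polymerase itself, had only 4.85 TPM, and Polg2, the accessory subunit of the mitochondrial DNA polymerase, was lowest at 2.81 TPM. Replicates were tight, with a median coefficient of variation over the members of 6.21% in OM and 6.31% in OM plus EMPA, beside 6.72% and 6.50% over all genes.

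**Figure D1:**
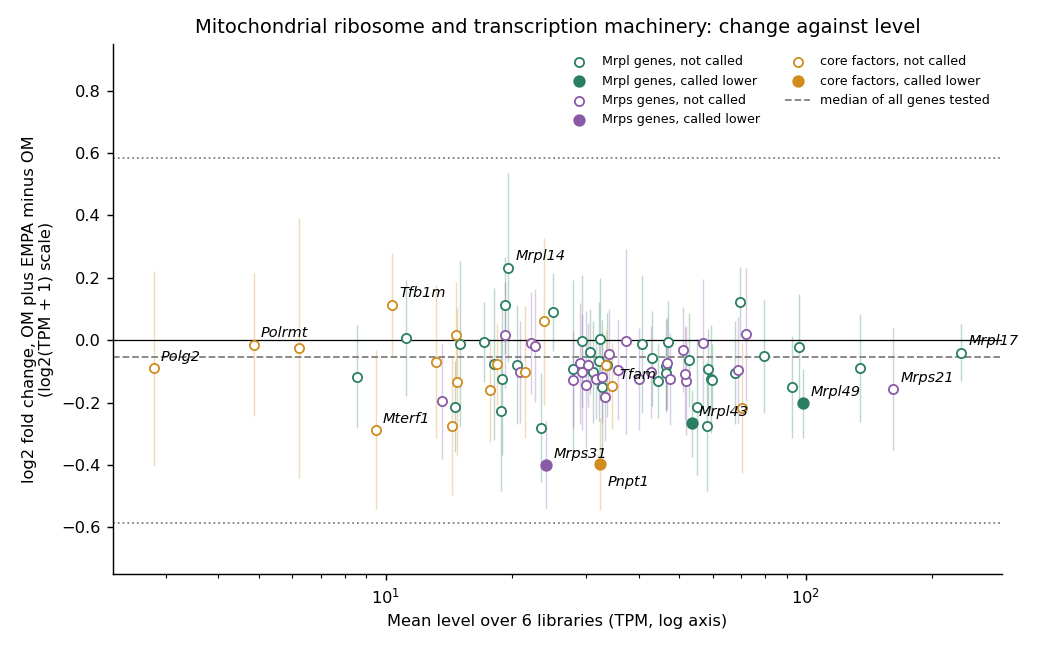
The horizontal axis is the mean TPM over the 6 libraries on a log axis and the vertical axis is the log2 fold change, OM plus EMPA minus OM, on the log2(TPM + 1) scale for each of the 87 members. Vertical lines are 95% intervals, dotted lines mark 1.5-fold in either direction, the dashed line is the median of all genes tested, and filled points are the 4 members called lower, which lie between -0.40 and -0.20.

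Whether empagliflozin shifted this machinery in calcifying VSMCs was asked by comparing OM plus EMPA with OM. It moved little. 4 of the 87 members were lower and 0 were higher at the threshold of an adjusted p of 0.05 (limma on log2(TPM + 1), Benjamini-Hochberg over the 12564 genes tested). Lower calls made up 4.86% of all genes tested, higher calls 2.06% and both together 6.92%, so the share of members called lower was close to that of genes at large. At an unadjusted p under 0.05 there were 16 members, beside 24.1% of all genes. The 95% interval of the fold change of TPM + 1 lay within 1.5-fold in either direction for 87 of 87 members, against 86.2% of all genes. Changes of TPM + 1 larger than 1.5-fold thus lay outside the interval of every member. For genes of low level the same bound allows a somewhat larger change of TPM itself.

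Most members nevertheless leaned the same way. The log2 fold change was below 0 for 76 of 87 members (87.4%), beside 65.1% of all genes. The count was 36 of 42 for Mrpl genes, 26 of 28 for Mrps genes and 14 of 17 for the factors. Median log2 fold changes were -0.08, -0.10 and -0.09 for these 3 classes, and -0.05 over all genes tested. After median-ratio scaling, which sets the median of all genes to 0.00, the class medians were -0.02, -0.04 and -0.04, and 59 members (67.8%) lay below 0, beside 49.9% of all genes. Under that scaling 3.02% of all genes were called lower and 3.13% higher.

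All 3 OM plus EMPA libraries lay below all 3 OM libraries for 18 members, and 22.5% of all genes did so. Only Mrpl52 and Mrpl48 lay above without overlap, beside 7.85% of all genes. Genes for smooth muscle contraction moved more. Of 8 VSMC markers, all were measured, 5 rose and 1 had a log2 fold change below 0, at -0.17. Their median log2 fold change was 0.35. Summed levels were 3442 to 3987 TPM with empagliflozin against 2562 to 3087 TPM in OM. Acta2, which encodes smooth muscle α-actin, had 488 TPM against 302 TPM, Cnn1 (calponin) 29.8 against 17, Lmod1 (leiomodin) 12.9 against 6.57 and Tagln (transgelin) 2052 against 1528. The calls on these 4 genes and on Cald1 were each lost with some single library left out, at adjusted p values up to 0.0628 for Cnn1 and 0.128 for Cald1. Of 6 leukocyte markers only Cd68, a gene of lysosomes, had a row, at 5.1 to 9.52 TPM with empagliflozin and 12.83 to 14.94 TPM in OM (adjusted p = 0.0378, up to 0.114 without a single library). None of 8 proliferation markers passed, and their median was 0.13, with the lowest p in Rrm2 (log2 fold change 0.14, adjusted p = 0.374) and Cdk1 (0.21, adjusted p = 0.401). The other 5 leukocyte markers and 5 endothelial markers were not analysed here. The part of these shifts in the members' values was not tested, and in bulk RNA fewer cells of a type cannot be told apart from less RNA per cell.

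Mrps31 encodes a small-subunit protein of the mitochondrial ribosome and had the lowest p of all members. It had 19.55, 22.08 and 20.28 TPM in the OM plus EMPA libraries and 27.03, 27.39 and 28.21 TPM in the OM libraries. Every treated library was thus well below every control library. The log2 fold change was -0.40 (SE 0.06, adjusted p = 0.0112). The gene lies on chromosome 16 from 69601349 to 69630654 (− strand) in the authors' table. Its nearest neighbour, Slc25a15, which encodes a mitochondrial ornithine carrier, lies 903 bases away and had a log2 fold change of -0.07 (adjusted p = 0.741).

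Pnpt1 encodes polynucleotide phosphorylase, an enzyme that degrades RNA in mitochondria and is also known as an interferon-inducible gene. Its level was 25.85, 27.95 and 29.89 TPM with empagliflozin and 38.14, 35.99 and 36.85 TPM without. The groups were far apart, and the log2 fold change was -0.40 (SE 0.06, adjusted p = 0.0126). Pnpt1 lies on chromosome 14 from 102877553 to 102908696 (+ strand). An assembled feature of the other strand covers it at a much lower level, 2.03 to 3.27 TPM, and had a log2 fold change of -0.02 (adjusted p = 0.956). The Pnpt1 promoter window held none of the NRF1, ETS, YY1 or interferon-response letters searched. It did hold GAAACGAAA, whose spacing is shorter than the 2 bases the interferon-response search required. Letters of that spacing were not searched for in the other windows, so how common they are is unknown. Supv3l1, the helicase that works with this enzyme, was at 15.74, 12.84 and 13.6 TPM against 15.16, 14.01 and 17.44 TPM, with overlapping groups and an adjusted p of 0.467.

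Mrpl43 encodes a large-subunit protein. It was measured at 50.17, 46.68 and 48.74 TPM with empagliflozin and at 60.04, 57.43 and 58.16 TPM in OM, again without overlap. The log2 fold change was -0.27 (SE 0.05, adjusted p = 0.0179). On chromosome 1 the gene (243866931 to 243868433, − strand) runs head to head with Twnk, which encodes the helicase of mitochondrial DNA replication, and their rows overlap by 104 bases. Twnk had 12.58, 11.34 and 14.55 TPM against 14.61, 12.04 and 13.76 TPM, which overlap, and a log2 fold change of -0.07 (adjusted p = 0.734). The Twnk promoter window holds the ETS letters at 2 places, and Mrpl43 had no window of its own in the RefSeq table. The call on Mrpl43 was lost when any of 4 single libraries was left out, OM plus EMPA 2 or 3 or OM 1 or 3, with an adjusted p of 0.0549 to 0.0637.

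Mrpl49, also a large-subunit gene, had the weakest of the 4 calls. Levels were 93.75, 88.06 and 92.82 TPM with empagliflozin and 100.85, 105.9 and 109.55 TPM in OM. The groups did not overlap but lay close, with a log2 fold change of -0.20 (SE 0.05, adjusted p = 0.0475). It lies on chromosome 1 from 203332481 to 203350049 (− strand). Syvn1, a ubiquitin ligase gene on the other strand, overlaps it by 6709 bases and had a log2 fold change of 0.04 (adjusted p = 0.802). Fau, whose product yields a cytosolic ribosomal protein, starts 128 bases from it in the other direction and had a log2 fold change of 0.09 (adjusted p = 0.307). Without any 1 of the 6 libraries the adjusted p of Mrpl49 was 0.0618 to 0.143, and under median-ratio scaling it was 0.129. Mrps31 and Pnpt1 kept an adjusted p of at most 0.0491 whichever library was left out.

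**Figure D2:**
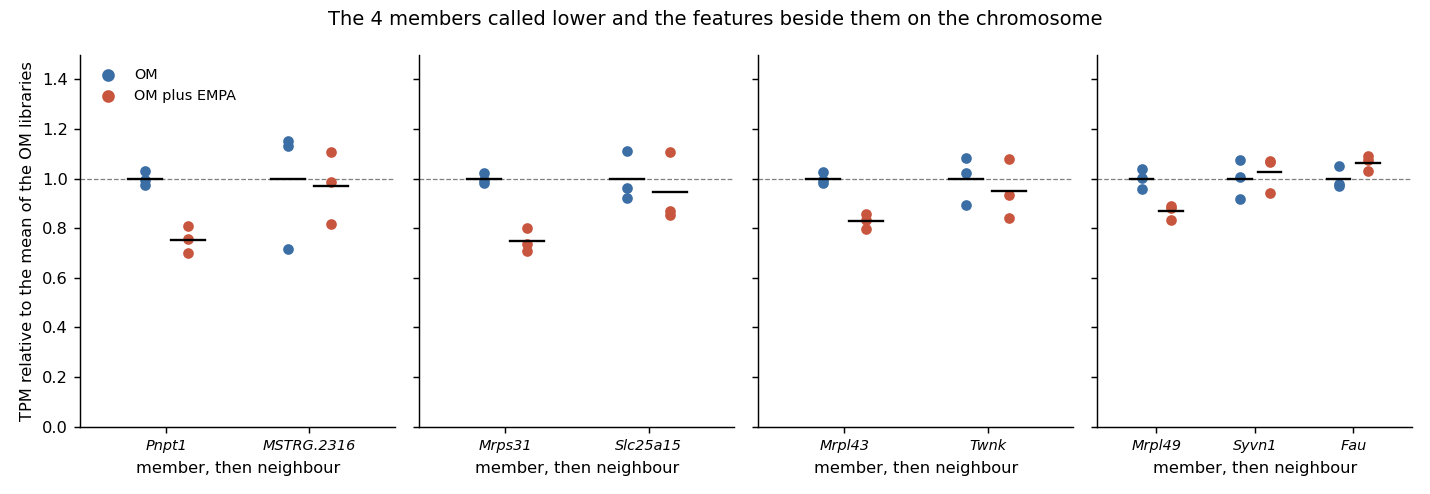
The vertical axis is TPM divided by the mean of the 3 OM libraries, for the 4 members called lower and for the features beside them on the chromosome. Points are libraries and bars are group means. Each called member's OM plus EMPA points lie below its OM points, and those of the neighbours Slc25a15, Twnk and Syvn1 overlap theirs.

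Shared starts and overlaps were common among the members. As placed by the authors, 35 of the 87 overlapped another feature, 31 of them a feature of the other strand, and 30 began within 1000 bases of a gene running the other way. Whether reads were counted by strand is not stated, so overlapping rows may share reads. Mitoribosomal genes are also known for processed pseudogenes, and how reads that match several places were shared out is not stated. Mrpl46 and Mrps11 overlap each other by 9028 bases. Mrpl30 starts 112 bases from Mitd1, which encodes a protein that helps divide cells at the end of mitosis. Mitd1, named after its values were seen, was itself lower, at 79.82, 77.19 and 82.38 TPM against 116.6, 100.61 and 107.95 TPM, with a log2 fold change of -0.43 (adjusted p = 0.00731). Mrpl30 had 16.42, 17.98 and 17.16 TPM against 24.48, 18.1 and 18.82 TPM and did not pass (log2 fold change -0.23, adjusted p = 0.255).

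The remaining large-subunit genes did not pass the test. Mrpl47 came closest, at 19.33, 22.05 and 21.67 TPM with empagliflozin and 27.88, 25.12 and 24.21 TPM in OM, a log2 fold change of -0.28 (adjusted p = 0.0704). It starts opposite Ndufb5, a complex I gene, which had a log2 fold change of 0.08 (adjusted p = 0.401). Mrpl44 had 13.95, 13.77 and 12.73 TPM against 15.53, 15.87 and 15.93 TPM (log2 fold change -0.21, adjusted p = 0.0908). Both sets of libraries were apart but by small distances. Mrpl15 had a log2 fold change as large as that of Mrpl47, -0.28, but its groups overlapped (46.91, 52.81 and 57.66 TPM against 66.1, 57.36 and 67.63 TPM, adjusted p = 0.111). Mrpl22 stood at a log2 fold change of -0.21 (adjusted p = 0.215).

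Few Mrpl genes were higher in value. The widest of these differences was in Mrpl14, at 24.17, 19.33 and 20.01 TPM with empagliflozin and 21.55, 15.28 and 17.05 TPM in OM. Its groups overlapped, and the log2 fold change of 0.23 did not pass (adjusted p = 0.325). The row of Aars2, an aminoacyl-tRNA synthetase gene of the same strand, covers Mrpl14 over 12841 bases. Mrpl52 was at 73.2, 75.71 and 69.58 TPM against 67.6, 68.37 and 64.55 TPM, without overlap, with a log2 fold change of 0.12 (adjusted p = 0.18). Mrpl48 at 0.09 (adjusted p = 0.355) and Mrpl41 at 0.11 (adjusted p = 0.355) were similar. The genes at the top of the level order did not pass, apart from Mrpl49. Mrpl17 had 237.55, 223.09 and 232.98 TPM against 239.3, 238.87 and 234.51 TPM (log2 fold change -0.04, adjusted p = 0.586), and Mrpl54 had a log2 fold change of -0.09 (adjusted p = 0.502). At the low end, Mrpl57 had a log2 fold change of -0.12 (adjusted p = 0.359) and Mrpl40 of 0.01 (adjusted p = 0.963).

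Beyond Mrps31, no small-subunit gene passed. Mrps28 was at 30.26, 30.85 and 31.87 TPM with empagliflozin and 38.02, 34.5 and 33.57 TPM in OM, apart but not past the threshold (log2 fold change -0.18, adjusted p = 0.116). Mrps10 had 13.16, 12.87 and 11.87 TPM against 13.35, 15.75 and 14.8 TPM (log2 fold change -0.20, adjusted p = 0.188). For Mrps2, Mrps22 and Mrps18c the log2 fold changes were -0.12 (adjusted p = 0.222), -0.13 (adjusted p = 0.283) and -0.14 (adjusted p = 0.442). Mrps21, the highest of the small-subunit genes, had 163.85, 137.2 and 156.95 TPM against 187.26, 156.34 and 167.62 TPM. Those groups overlap, and the log2 fold change was -0.16 (adjusted p = 0.30). Mrps7 and Mrps15 had log2 fold changes of -0.09 (adjusted p = 0.477) and -0.10 (adjusted p = 0.427). The highest values in this class were the 0.02 of Mrps33 (adjusted p = 0.923) and the 0.02 of Mrps16 (adjusted p = 0.917).

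Tfam, whose product packages mitochondrial DNA and starts its transcription, had 33.94, 33.46 and 30.76 TPM with empagliflozin and 35.91, 34.84 and 38.22 TPM in OM. The groups did not overlap, yet the difference of -0.15 on the log2 scale (SE 0.06) did not pass (adjusted p = 0.187). The polymerase gene Polrmt was level, at 5.19, 4.36 and 4.91 TPM against 4.5, 4.96 and 5.16 TPM (log2 fold change -0.01, adjusted p = 0.947). Tfb2m, which melts the promoter, and Tefm, an elongation factor, had log2 fold changes of -0.10 (adjusted p = 0.542) and -0.03 (adjusted p = 0.949). Mterf1, known for binding the termination site downstream of the rRNA genes, was at 9.12, 7.55 and 8.59 TPM against 12.16, 9.51 and 9.9 TPM, apart by a narrow gap (log2 fold change -0.29, adjusted p = 0.167).

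The 3 factors of rRNA maturation did not pass. Mterf4, which helps assemble the ribosome with the methyltransferase encoded by Nsun4, had 11.62, 14.45 and 12.75 TPM with empagliflozin and 15.51, 14.64 and 17.35 TPM in OM. That is a log2 fold change of -0.27 without overlap (adjusted p = 0.137). Tfb1m, which methylates the small-subunit rRNA, was at 11.18, 10.9 and 10.35 TPM against 9.82, 9.5 and 10.42 TPM, with a log2 fold change of 0.11 (adjusted p = 0.374). Mterf3 had a log2 fold change of 0.06 (adjusted p = 0.783).

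The value of Slirp depended on 1 library. Its levels were 58.67, 75.8 and 61.11 TPM with empagliflozin and 76.14, 75.82 and 74.57 TPM in OM. OM plus EMPA library 2 sat among the OM libraries, and the other 2 were well below. With all libraries the log2 fold change was -0.22 (adjusted p = 0.189), and without OM plus EMPA library 2 it was -0.33 (adjusted p = 0.0240). Its partner Lrpprc had 33.45, 32.07 and 31.95 TPM against 33.95, 33.89 and 35.38 TPM, a narrow gap with a log2 fold change of -0.08 (adjusted p = 0.355).

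The other genes of mitochondrial DNA replication had small differences. Polg, the catalytic subunit of the polymerase, had a log2 fold change of 0.02 (adjusted p = 0.910) and Polg2 of -0.09 (adjusted p = 0.725). Of the nuclear transcription factors, Nrf1 was at 16.3, 17.07 and 16.52 TPM with empagliflozin and 20.26, 18.82 and 17.16 TPM in OM. The groups did not overlap, and the log2 fold change of -0.16 did not pass (adjusted p = 0.222). Gabpa had a log2 fold change of -0.08 (adjusted p = 0.464). Members with the ETS letters in their window had a median log2 fold change of -0.11 and those without of -0.08. For the NRF1 letters the medians were -0.12 and -0.08, and for the YY1 letters -0.10 and -0.08. The 9 members with the NRF1 letters ran from -0.23 to 0.23. The other letters gave like values, -0.10 and -0.08 for TATAAA, -0.10 and -0.09 for GGGCGG and -0.09 and -0.09 for CCAAT. For the interferon-response letters, held by 3 members, they were -0.14 and -0.09. These differences were not tested.

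**Figure D3:**
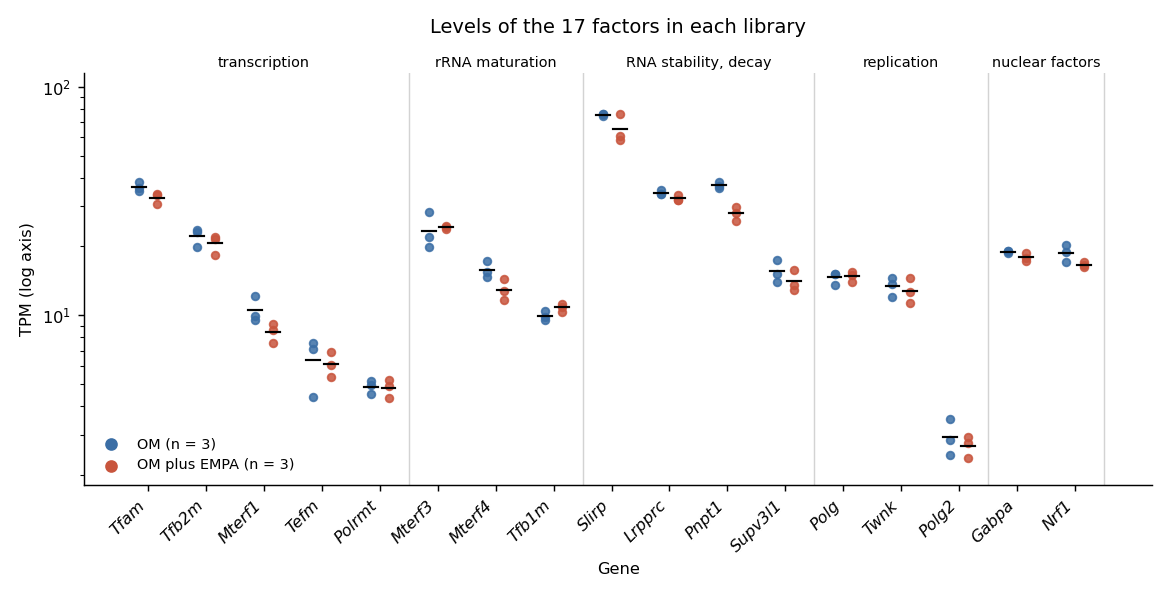
The vertical axis is TPM on a log axis for each of the 17 factors, grouped by role, with OM libraries in blue, OM plus EMPA libraries in red and group means as bars (n = 3 each). Pnpt1 shows the widest gap between groups, at 25.85 to 29.89 TPM against 35.99 to 38.14 TPM.

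Summed levels gave the balance of the machinery within each library. Large-subunit genes added up to 1959 ± 63.2 TPM (SD, n = 3) with empagliflozin and 2080 ± 64.3 TPM in OM, and small-subunit genes to 1125 ± 32.1 and 1205 ± 61.7 TPM. The large-subunit sums lay apart by a narrow gap, at 1913 to 2031 against 2037 to 2154 TPM, and the small-subunit sums overlapped. The ratio of the large to the small subunit was 1.74 ± 0.00838 against 1.73 ± 0.0456, and the groups overlapped. The same genes were then set against 81 rows with symbols of nuclear respiratory chain genes and 102 with symbols of cytosolic ribosomal protein genes. Both sets were taken by the first letters of the symbol alone, so they may also hold genes of other function. Mitoribosomal mRNA amounted to 20.87%, 20.63% and 20.86% of nuclear respiratory chain mRNA with empagliflozin and 21.97%, 21.93% and 21.83% in OM. The treated libraries were all lower, by about 1.13 percentage points. Set against cytosolic ribosomal protein mRNA, the values were 3.64%, 3.20% and 3.61% against 4.05%, 3.94% and 3.94%, also without overlap. Here the lower ratio came with a higher denominator, since the cytosolic sum was 88814 ± 6068 TPM with empagliflozin and 82546 ± 1945 TPM in OM, groups that overlapped. The combined mitoribosomal sum was 3084 ± 95.1 and 3285 ± 123 TPM, also with overlap. Leaving out any 1 library left these differences between -1.17 and -1.05 and between -0.575 and -0.353 percentage points. With 3 libraries in each group an exact permutation test cannot go below 0.1, so no p is given for these sums.

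**Figure D4:**
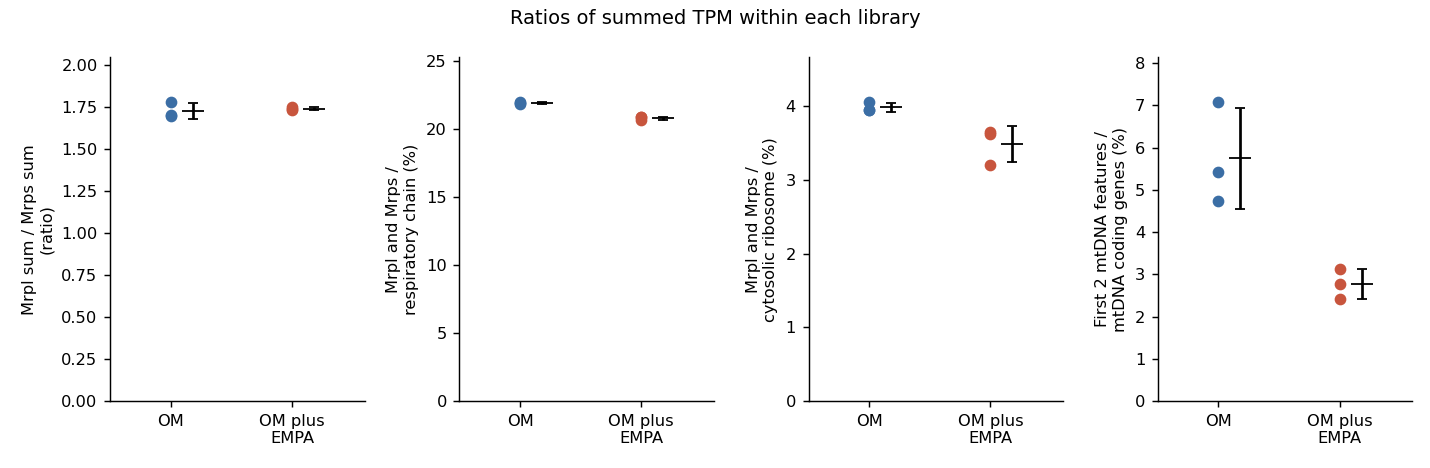
Each panel gives a ratio of summed TPM in each library (points), with group means and SD (bars, n = 3). Ratios are, from left to right, large over small subunit genes, mitoribosomal over nuclear respiratory chain genes, mitoribosomal over cytosolic ribosomal protein genes, and the first 2 features of mitochondrial DNA over its coding genes. The last 3 are lower in all OM plus EMPA libraries and the first, at 1.74 against 1.73, is not.

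Other genes of mitochondrial gene expression were taken as lists by function. Beside the counts of each list, 4.86% of all genes tested were called lower and 2.06% higher. Of 22 tested rows for ribosome assembly and rRNA modification, 3 fell and 0 rose, with a median log2 fold change of -0.01. They were a row of Nsun4 (14.6 against 18.7 TPM, log2 fold change -0.34, adjusted p = 0.0189), Mrm3, an rRNA methyltransferase gene (7.59 against 10.2 TPM, log2 fold change -0.39, adjusted p = 0.0262), and Trub2, a pseudouridine synthase gene (34.2 against 41.6 TPM, log2 fold change -0.28, adjusted p = 0.0356). A second row with the symbol Nsun4 had a log2 fold change of 0.01 (adjusted p = 0.958). The calls on these 3 genes were lost with some single library left out, at adjusted p values up to 0.0729, 0.0851 and 0.1.

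Among 20 genes of mitochondrial RNA processing, 1 fell and 0 rose, with a median of -0.13. That share was close to the 4.86% of all genes tested that were called lower. It was Trmt10c, a subunit gene of the RNase that frees transfer RNAs (12.6 against 15.4 TPM, log2 fold change -0.27, adjusted p = 0.0471, up to 0.142 without a single library). None of 16 translation factors, 16 aminoacyl-tRNA synthetases, 17 genes of mitochondrial DNA maintenance and 5 further mitoribosome genes passed in either direction, and their medians were 0.03, -0.07, -0.02 and -0.01. Ptcd3, a small-subunit gene without the Mrps name, was nearest to the threshold (log2 fold change -0.25, adjusted p = 0.0510), and Aurkaip1 came next in its list (-0.10, adjusted p = 0.261). In DNA maintenance the lowest p values were those of Atad3a, a nucleoid-associated membrane protein gene (-0.21, adjusted p = 0.0623), and Tk2, a thymidine kinase gene (-0.26, adjusted p = 0.0946). In the translation and synthetase lists the lowest p values belonged to Mtif2 (log2 fold change -0.21, adjusted p = 0.241), Tufm (-0.09, 0.286), Hars2 (-0.14, 0.156) and Vars2 (-0.24, 0.197).

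Of 6 tested regulators of mitochondrial biogenesis, 1 fell and 0 rose, with a median of -0.11. Nfe2l2, which encodes the stress-response factor NRF2 and is not the Nrf1 gene, had 173 TPM against 207 TPM (log2 fold change -0.25, adjusted p = 0.0173, up to 0.0632 without a single library). Ppargc1b, a coactivator gene, was below 1 TPM in all libraries and was not tested. Ppargc1a was not analysed here. In comparison, of 100 tested rows with symbols of cytosolic ribosomal protein genes, 5 rose and 0 fell, with a median of 0.09. Of all genes tested, 2.06% were called higher and 4.86% lower. Those that rose were Rps4x, Rplp1, Rps16, Rpl21 and Rps20 (adjusted p of 0.0378 to 0.0445). Of 80 tested rows with symbols of nuclear respiratory chain genes, 0 passed in either direction, with a median of -0.01. Both sets were taken by the first letters of the symbol and may hold genes of other function.

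**Figure D5:**
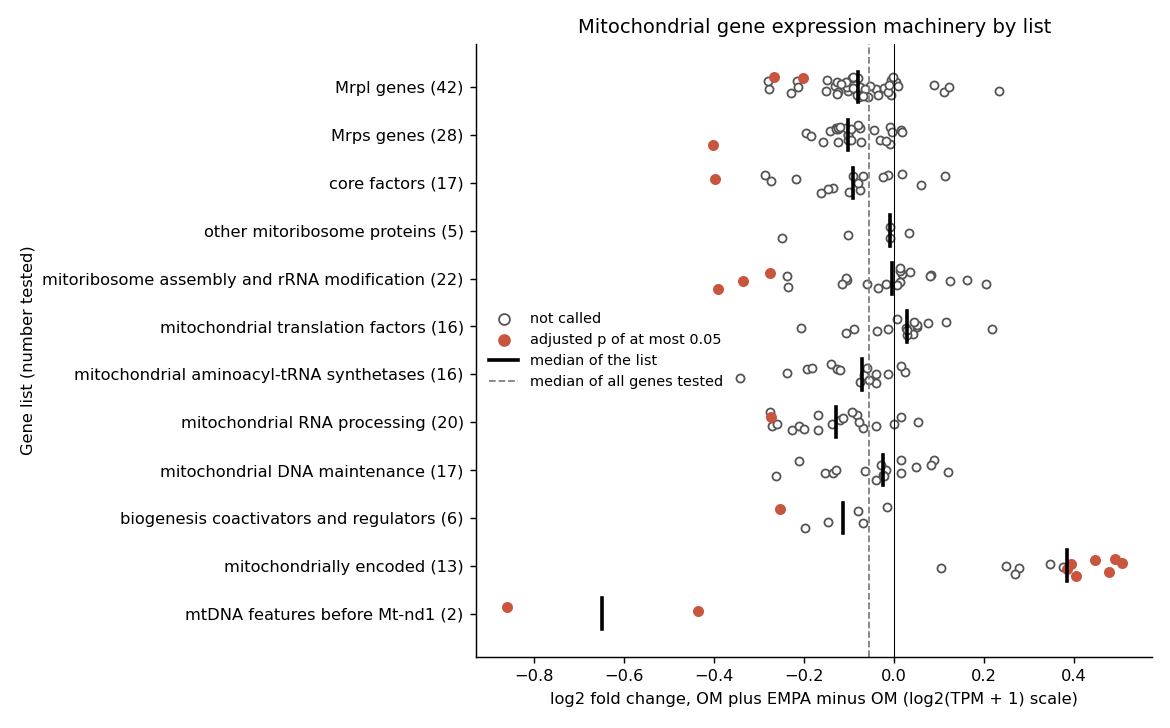
The horizontal axis is the log2 fold change, OM plus EMPA minus OM, on the log2(TPM + 1) scale, for each tested gene (points) of the member classes and the functional lists (rows, with the number tested). Short vertical bars are list medians and the dashed line is the median of all genes. The nuclear lists shown centre between -0.13 and 0.03, while the 13 mitochondrially encoded genes centre at 0.39.

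The RNAs made from mitochondrial DNA, which this machinery transcribes and translates, moved further than its own genes. All 13 mitochondrially encoded protein genes had higher values with empagliflozin, with a median log2 fold change of 0.39. Of these, 7 rose, beside 2.06% of all genes tested. Mt-nd1 had a log2 fold change of 0.39 (adjusted p = 0.0141), Mt-cyb of 0.49 (adjusted p = 0.0291), Mt-nd4 of 0.51 (adjusted p = 0.0312) and Mt-nd6 of 0.40 (adjusted p = 0.0378). Each of the 7 calls was lost with some single library left out, at adjusted p values up to 0.0652 for Mt-nd1 and 0.140 for Mt-nd5. The 13 genes together made up 10.4 ± 0.332% of all TPM with empagliflozin and 8.41 ± 0.898% in OM (SD, n = 3). TPM are shares of a fixed total. With each library rescaled without them, 3 members were called lower.

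The features of the mitochondrial genome that lie ahead of Mt-nd1 went the other way. They were chosen after their values were seen, and the table gives them no descriptive name. In mammalian mitochondrial DNA the rRNA genes lie in this place. The first feature, at positions 68 to 1025, carries the GO term for a structural constituent of the ribosome. It had 2136, 1626 and 1952 TPM with empagliflozin and 3961, 3136 and 3263 TPM in OM, far apart, with a log2 fold change of -0.86 (SE 0.12, adjusted p = 0.00802). The second, at positions 1094 to 2664, had 985, 944 and 953 TPM against 1310, 1248 and 1342 TPM and a log2 fold change of -0.44 (SE 0.05, adjusted p = 0.00383).

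Summed, the first 2 features came to 3.13%, 2.43% and 2.78% of the coding sum with empagliflozin and to 7.07%, 4.75% and 5.41% in OM. OM library 1 was the highest and the groups did not overlap. Leaving out any 1 library left the difference between -3.46 and -2.30 percentage points, and both features were called lower in every alternative run. No source names a step that selects or depletes rRNA in library preparation, and its part in these values was not tested. The small feature at positions 6865 to 6933 on the other strand, annotated as a codon adaptor, had a log2 fold change of 1.6 and did not pass (adjusted p = 0.0828).

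3 further rows with mitoribosome symbols were spelled in lower case in the table, mrpl11, mrpl24 and mrpl9, and were not members under the rule. Their log2 fold changes were -0.18 (adjusted p = 0.0904), -0.13 (adjusted p = 0.359) and -0.04 (adjusted p = 0.615), so counting them would leave the number of calls at 4.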

How the data were processed

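RNA from 6 samples of primary rat VSMCs was sequenced as paired reads after library preparation with a NEBNext Ultra kit. Of these, 3 were named Pi+E (called OM plus EMPA here) and 3 were named Pi (called OM here). The submitters' processing notes list fastp, HISAT2 2.0.5, RSEM and DESeq2 without roles. The genome build and the counting strand are not given in the sources used here. The authors deposited TPM per gene and library, and these 6 columns were used. The deposited table also holds the authors' log2 fold changes, p-values and adjusted p-values, which were not used. TPM summed to 997954 to 998293 per library, and the read depth behind them is unknown.

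Values were taken as log2(TPM + 1), genes whose mean reached 1 TPM were kept (12564 of 13526), and OM plus EMPA was compared with OM in limma 3.58.1 (R 4.3.3, variance trend, 4 residual degrees of freedom), with Benjamini-Hochberg adjustment and a threshold of 0.05. The script was tested on simulated data. A fold change on this scale understates the change of low genes. Named were all 17 factors, every called Mrpl or Mrps gene, the 5 with the lowest p and the 5 with the largest change in each direction, the 3 highest and 3 lowest levels of each class, and of each list up to 4 called genes or else the 2 lowest p. Members and lists were chosen with earlier results of these data known. Promoter windows came from RefSeq (GRCr8), with 1 window per gene (the first listed), and 17 members had no entry. Alternatives were another pseudocount (0.1), other filters and scalings, no variance trend, the replicate number as a block, a threshold of 0.1, leaving out each library, and, chosen after seeing the data, counting the lower-case symbols and leaving libraries out of the ratios and the mitochondrial features.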

Additional observations from a re-analysis of the deposited data

How the results depend on the processing

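No member was called higher under any alternative run, and none of the 4 called members changed direction. The number of members called lower was 4 with a pseudocount of 0.1, with no filter and with at least 1 TPM in each library. It was 3 under median-ratio scaling, under upper-quartile scaling, without the mitochondrially encoded genes and with no variance trend, and 6 at a threshold of 0.1. Leaving out 1 library gave 2 to 3 calls, with 2 without OM plus EMPA 3, OM 1 or OM 3. Only Mrps31 and Pnpt1 kept their calls under every alternative. The median log2 fold change of Mrps genes moved to -0.045 under median-ratio and to -0.039 under upper-quartile scaling. With 1 library left out, the medians ran from -0.12 to -0.06 for Mrpl genes, from -0.14 to -0.07 for Mrps genes and from -0.16 to -0.05 for the factors.

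Changes of sign were limited to members that did not pass, 17 of 87 under median-ratio scaling, 18 under upper-quartile scaling, 12 without the mitochondrially encoded genes and 28 with some single library left out. These scalings move all genes of a library alike. Among the members named by the rule, under median-ratio and upper-quartile scaling the log2 fold change became 0.019 and 0.025 for Mrpl17, 0.035 and 0.039 for Polrmt and 0.025 and 0.030 for Tefm, and without the mitochondrially encoded genes 0.011 for Polrmt and 0.00156 for Tefm. With 1 library left out, the values of named members that changed sign ran from -0.057 to 0.055 for Mrpl40, -0.056 to 0.060 for Mrps16, -0.079 to 0.10 for Mrps33, -0.044 to 0.20 for Mterf3, -0.032 to 0.059 for Polg, -0.18 to 0.013 for Polg2, -0.061 to 0.044 for Polrmt, -0.23 to 0.10 for Tefm and -0.16 to 0.010 for Twnk. The cause was not tested. Of the listed genes, Trub2 lost its call under median-ratio scaling (adjusted p = 0.0888), as did Trmt10c (adjusted p = 0.0883), which also lost it with no filter (adjusted p = 0.0560), with no variance trend (adjusted p = 0.0525) and with the block (adjusted p = 0.0520).

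With the replicate number as a block, 5 members were called lower, the added gene being Mrps21 (adjusted p = 0.0475). Deviations of same-numbered libraries correlated at 0.0979, 0.162 and 0.0575, and each library correlated best with its own number, but the labels give no shared culture or day, so the numbers were not treated as a pairing. The read depth is unknown.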
